A study of Mus musculus with 8 samples.

Results

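The miR-106b-25 and miR-106a-363 clusters are both paralogs of the miR-17-92 cluster. In the mouse, the first makes miR-106b, miR-93 and miR-25 from an intron of Mcm7, the gene of a subunit of the DNA replication helicase, and the second makes miR-106a, miR-18b, miR-20b, miR-19b, miR-92a and miR-363 from the X chromosome. The miRNAs described here are 9 mature forms, taken from the arrays by name. Of the first cluster they are mmu-miR-106b-5p, mmu-miR-106b-3p, mmu-miR-93-5p, mmu-miR-93-3p and mmu-miR-25-3p, and of the second mmu-miR-106a-5p, mmu-miR-20b-5p, mmu-miR-18b-5p and mmu-miR-363-3p. Of the 9, 8 have probes under their own name among the 1881 miRNAs of the arrays, and miR-106a-5p was not analysed here. MiRNA levels were measured in 4 kidney samples from male Akita mice and 4 from male control mice, with 1 one-colour Agilent array per sample.

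The Akita mice have the strain label C57BL/6-Ins2Akita/J, where the Akita allele of Ins2, an insulin gene, acts dominantly: its proinsulin misfolds in pancreatic beta cells and the animals become diabetic. The controls are C57BL/6J mice, and their titles call them Mock, a word that no label explains. All 8 samples have the age 36, without a unit. No label says whether the 4 samples of a group are 4 animals, and p-values here measure only how these samples spread. Below, a kidney stands for 1 sample. Total RNA was taken from homogenized kidney, in which fewer cells of a type and less RNA per cell cannot be told apart.

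A miRNA guides the Argonaute protein to mRNAs by pairing through its seed, here bases 2 to 8 counted from the 5′ end, and lowers their translation and stability. Members of these clusters are known to be induced with the cell cycle, Mcm7 and its miRNAs through E2F factors, and to repress cell cycle inhibitors such as Cdkn1a, the proapoptotic factor Bim and parts of TGF-beta signalling. In the kidney, the miR-17 family is best known from nephron progenitors and from cyst growth in polycystic kidney disease.

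The mature sequences are shown first because both clusters carry the same seeds and because related sequences bear on what a short probe can tell apart. The sequences and positions are those of RefSeq on GRCm38.p6, where 24 of 25 listed miRNAs of the clusters and their seed relatives matched by name, and capitals mark the seed. The 3 hairpins of the miR-106b-25 cluster lie within 498 bases on the minus strand of chromosome 5, inside Mcm7. The 6 hairpins of the miR-106a-363 cluster lie within 875 bases on the minus strand of chromosome X. The first group holds the seed of miR-17:
miR-106b-5p (chr5:138165787-138165807): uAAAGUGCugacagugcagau
miR-93-5p (chr5:138165574-138165596): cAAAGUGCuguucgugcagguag
miR-106a-5p (chrX:52742541-52742563): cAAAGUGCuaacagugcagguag
miR-20b-5p (chrX:52742159-52742181): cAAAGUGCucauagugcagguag
The second group holds the seed of miR-92:
miR-25-3p (chr5:138165332-138165353): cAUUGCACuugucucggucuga
miR-363-3p (chrX:52741697-52741718): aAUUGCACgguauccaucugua
The remaining forms are miR-18b-5p, with the seed of miR-18, and the 3p arms of the first 2 hairpins of chromosome 5:
miR-18b-5p (chrX:52742381-52742403): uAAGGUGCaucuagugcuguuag
miR-106b-3p (chr5:138165746-138165767): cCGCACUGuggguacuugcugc
miR-93-3p (chr5:138165536-138165557): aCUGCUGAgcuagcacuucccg

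The seed of miR-17 is shared by 6 miRNAs of these clusters and of miR-17-92, and that of miR-92 by 6 listed miRNAs. Set base by base from the 5′ end, miR-20b-5p differed from miR-20a-5p of the miR-17-92 cluster at 2 of 23 bases, and from miR-93-5p at 3 of 23. MiR-106a-5p differed from miR-17-5p at 1 of 23 bases. MiR-25-3p differed from miR-92a-3p at 3 of 21 bases.

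The probes of the arrays are DNA oligos of 12 to 20 bases (for the 8 members) that pair with the 3′ part of the miRNA. The probes are shown because the closest relatives differ from the members by few bases in that part. Each is the longest probe of its miRNA, written 5′ to 3′. Capitals mark the bases that do not pair with the nearest other mouse miRNA, in an ungapped alignment that holds the whole probe:
miR-20b-5p probe, nearest other miR-20a-5p: ctacctgcactatGagcact
miR-106b-5p probe, nearest other miR-106a-5p: aTctgcactgtCagcac
miR-93-5p probe, nearest other miR-20a-5p: ctacctgcacGaACag
miR-25-3p probe, nearest other miR-7222-5p: tcagaCcGAgAcaagtgc
miR-17-5p probe, nearest other miR-106a-5p: ctacctgcactgt
The longest probe of miR-20b-5p, of 20 bases, had 1 mismatch to miR-20a-5p, and miR-20a-5p was itself above background on all 8 arrays. The probe of miR-106b-5p had 2 mismatches to its nearest relatives, that of miR-93-5p had 3, and that of miR-25-3p had 4. The 4 leaves out miR-92a-3p at its matching bases. With 21 bases against 22 for miR-25-3p, it is too short to hold the whole probe there. The longest probe of miR-92a-3p had 2 mismatches to miR-25-3p, and miR-92a-3p was above background on all 8 arrays. Both probes of miR-17-5p, of 12 and 13 bases, had 0 mismatches to miR-106a-5p, so that their signal does not separate these 2 miRNAs. How far a probe of miR-20b-5p also takes up miR-20a-5p, or a probe of miR-25-3p also takes up miR-92a-3p, was not tested.

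Detection split the 8 measured members evenly. The scanner software marks spots that stand well above background, and a miRNA was taken as detected on an array when at least 0.5 of the spots of 1 of its probes had that mark. MiR-106b-5p, miR-93-5p, miR-25-3p and miR-20b-5p were above background on all 8 arrays. MiR-106b-3p, miR-93-3p, miR-18b-5p and miR-363-3p were above background on 0 of 4 Akita arrays and 0 of 4 control arrays. The miR-106b-25 cluster thus had 3 of 5 members detected, the guide strand of each of its hairpins, and the miR-106a-363 cluster had 1 of 3 measured members.

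The undetected forms gave almost no signal. Their 14 probes had spot means between -4.68 and 8.85 intensity units before scaling, over all 8 arrays. The 8 probes of the detected members had within-array coefficients of variation between spots of 2.93% to 10.1%, with a median of 6.30%, over up to 15 spots per probe. MiR-363-3p, which has the seed of miR-25-3p but lies at the other cluster, had a summed scaled signal of 7.13 to 14.01 in Akita kidneys and 6.67 to 14.2 in control kidneys, under the floor of 23.65. A signal of 23.65 is the lowest that a miRNA above background on all 8 arrays had, and smaller sums were set to it before log2 was taken. MiR-18b-5p had sums between -7.56 and 3.68 in Akita kidneys and between -4.08 and 3.86 in control kidneys. These values bound a signal on the array, and depend on each probe's own affinity.

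**Figure D1:**
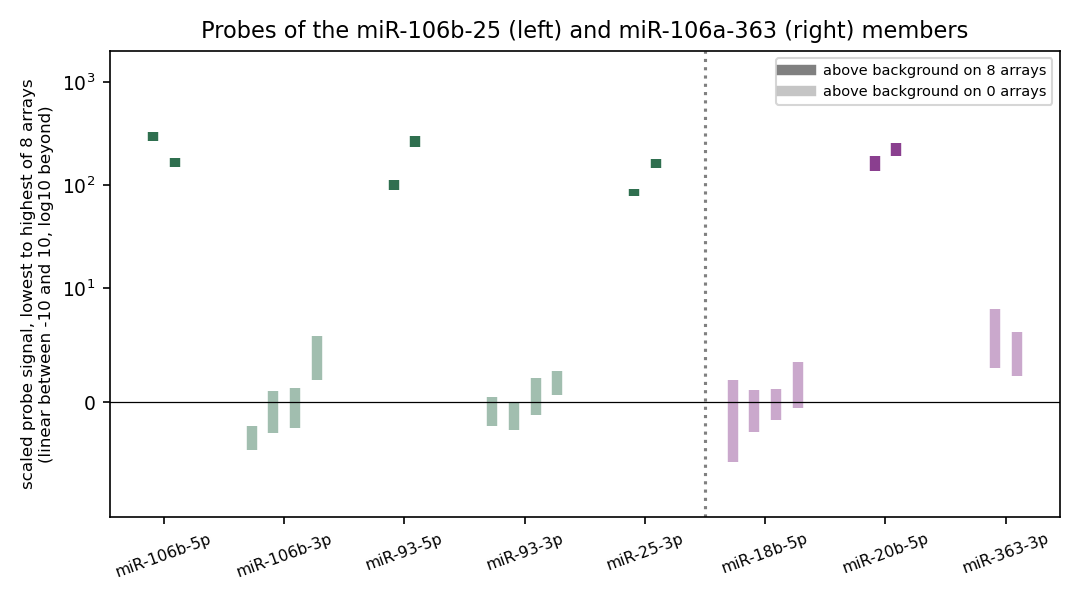
Scaled signal of the 22 probes of the 8 measured members, 1 bar per probe from the lowest to the highest of the 8 arrays (vertical axis, linear up to 10 on either side of 0 and log10 beyond). Dark bars are the 8 probes above background on all 8 arrays, pale bars the 14 probes above background on none, which stay under 10; green marks the miR-106b-25 cluster and purple the miR-106a-363 cluster.

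The other arms that the 2 clusters make were mostly undetected too. Of 9 listed forms, the 7 that are made by these clusters alone, among them miR-25-5p, miR-20b-3p, miR-363-5p and miR-92a-2-5p, were above background on no array. The brightest of them, miR-18b-3p, had sums of 16.7 to 17.5 in Akita kidneys and 9.62 to 15.3 in control kidneys, under the floor. Its groups did not overlap, as in 22.8% of all tested miRNAs, but a signal at background was not tested or read as a difference. The other 2 of the 9 are miR-19b-3p and miR-92a-3p, which the miR-17-92 cluster on chromosome 14 makes in the same mature form. Both were above background on all 8 arrays. Apart from these shared forms, only the probes of miR-20b-5p gave a signal above background, among the 9 forms of the X-linked cluster with probes of their own. These probes have 1 mismatch to miR-20a-5p of chromosome 14. How much of their signal comes from miR-20a-5p was not tested.

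Each array was divided by the 75th percentile of the 451 probes detected on every array, signals were summed over each miRNA's probes, and values are given as log2 of that scaled signal. Signals of different miRNAs come from different probes and were not ranked as amounts. The test was limma on the 285 miRNAs that all 4 arrays of a group detected, in Akita, control or both, with Benjamini-Hochberg adjustment over these 285. Log2 fold changes were taken as Akita minus control. The 4 undetected members were not tested. A miRNA is named as called where its adjusted p was under 0.05.

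None of the 4 tested members was called: 0 of 4 at an adjusted p under 0.05, where 14.7% of all tested miRNAs were called, 6.32% lower and 8.42% higher in Akita. At an unadjusted p under 0.05 it was 1 of 4, miR-20b-5p, where 34% of all tested miRNAs lay under that value. By cluster, the 3 members of the miR-106b-25 cluster had log2 fold changes on both sides of 0 with a median of 0.02, and the single tested member of the miR-106a-363 cluster had -0.22. The median over all tested miRNAs was 0.06, with 41.4% of them below 0.

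mmu-miR-20b-5p, a miR-17 family member known in human cell lines to repress HIF1A and VEGFA, had log2 signals of 8.52, 8.34, 8.50 and 8.59 in the Akita kidneys, against 8.61, 8.79, 8.73 and 8.69 in the control kidneys. All 4 Akita values lay below all 4 control values, with Akita replicate 4 just under control replicate 1. It was the only 1 of the 4 tested members whose groups did not overlap, where 22.8% of all tested miRNAs did not overlap and 9.12% did so with Akita lower. The Akita kidneys averaged 8.49 ± 0.11 and the control kidneys 8.71 ± 0.07 (SD, n = 4 each). The log2 fold change was -0.22 ± 0.08 SE with a 95% interval from -0.39 to -0.05, an Akita signal of 0.860 times the control signal. Its limma adjusted p = 0.081 missed the threshold.

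The 2 probes of miR-20b-5p gave log2 fold changes of -0.23 and -0.21. They overlap in sequence and are no independent check. With quantile normalization, cyclic loess or the authors' deposited values, miR-20b-5p was called lower, with limma adjusted p = 0.0056, 0.0073 and 0.049. Over all 24 alternatives in processing its log2 fold change ran from -0.49 to -0.13, and its adjusted p from 0.0011 to 0.70, with no call when any 1 array was left out.

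mmu-miR-106b-5p, the first miRNA of the Mcm7 intron and a known repressor of Cdkn1a, had log2 signals of 8.82, 8.73, 8.77 and 8.995 in the Akita kidneys, against 8.73, 8.88, 8.81 and 8.79 in the control kidneys. The groups overlapped, and 1 Akita kidney, replicate 4, lay above every control kidney. The log2 fold change was 0.02 ± 0.08 SE, with a 95% interval from -0.15 to 0.20 and a limma adjusted p = 0.88. The interval leaves room for Akita signals between 0.901 and 1.15 times the control signal.

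mmu-miR-93-5p shares the miR-17 seed and lies next in the intron, and Vegfa is among its known targets in cells of the diabetic kidney. Its log2 signals were 8.52, 8.39, 8.43 and 8.67 in the Akita kidneys, against 8.33, 8.49, 8.45 and 8.39 in the control kidneys. The groups overlapped, with 2 Akita values above the highest control value. Its log2 fold change was 0.08 ± 0.08 SE (95% interval -0.10 to 0.26, limma adjusted p = 0.48).

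mmu-miR-25-3p, the miRNA of the intron with the miR-92 seed and a known repressor of Bim, had log2 signals of 7.96, 7.80, 7.92 and 8.08 in the Akita kidneys, against 7.91, 8.03, 8.07 and 7.99 in the control kidneys. The groups overlapped here too, and the highest and the lowest of the 8 values were both Akita values. Its log2 fold change was -0.06 ± 0.08 SE (95% interval -0.23 to 0.12, limma adjusted p = 0.61). Over the 3 miRNAs of the intron, the intervals reached from 0.851 times the control signal, for miR-25-3p, to 1.20 times, for miR-93-5p.

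In all 4 detected members, Akita replicate 4 was the highest and Akita replicate 2 the lowest of the Akita arrays. The 75th percentile that scales each array was 369 for Akita replicate 4, against 433 to 446 for the other Akita arrays and 495 to 520 for the control arrays. The part of this scaling in the members' array-to-array movement is removed in the differences between 2 members of the same array, given next.

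**Figure D2:**
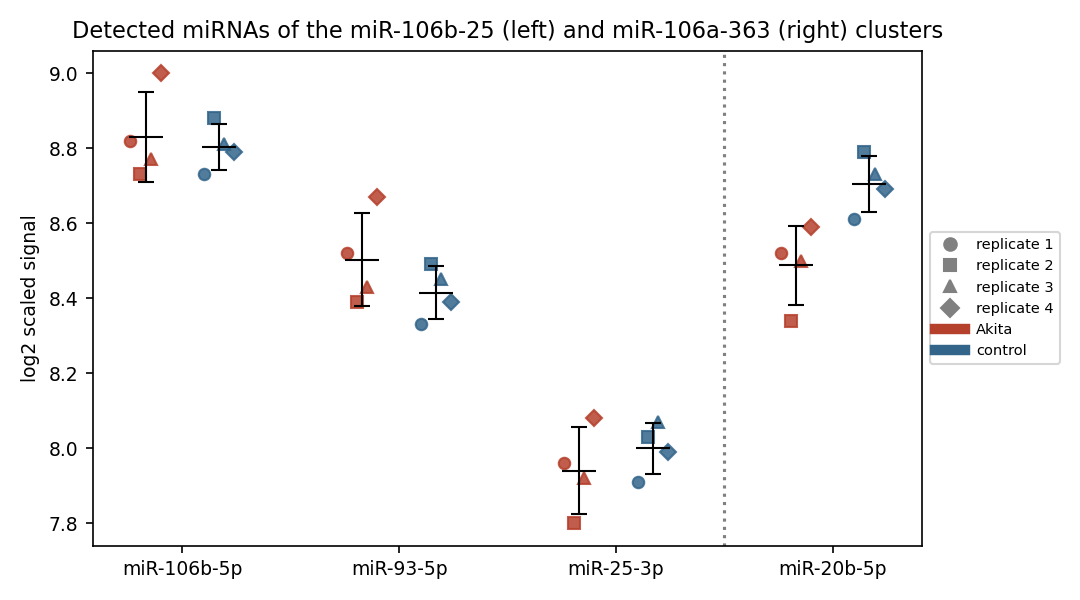
Log2 scaled signal (vertical axis) of the 4 detected members on each array, Akita left of control, with a marker shape per replicate number and bars for the mean and SD (n = 4 each). The groups overlap for miR-106b-5p, miR-93-5p and miR-25-3p, and all 4 Akita values of miR-20b-5p lie below the 4 control values.

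The difference between 2 miRNAs of 1 array does not depend on the factor that scaled the array. MiR-20b-5p minus miR-93-5p was -0.01, -0.05, 0.08 and -0.07 on the log2 scale in the 4 Akita kidneys, against 0.29, 0.30, 0.28 and 0.30 in the control kidneys. The control kidneys had an SD of 0.0077 among themselves, and every Akita kidney lay below all of them. The mean difference was lower by 0.30 in Akita. Relative to miR-93-5p of the same array, miR-20b-5p was thus lower in Akita in 4 of 4 samples.

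The same held against the other 2 miRNAs of the Mcm7 intron. MiR-20b-5p minus miR-106b-5p ran from -0.40 to -0.27 in Akita kidneys and from -0.12 to -0.08 in control kidneys. MiR-20b-5p minus miR-25-3p ran from 0.51 to 0.58 in Akita kidneys and from 0.67 to 0.76 in control kidneys. The Akita minus control values of these differences were -0.24 and -0.16.

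Among the 3 miRNAs of the Mcm7 intron, the within-array differences shifted by less. MiR-93-5p minus miR-25-3p was 0.57, 0.59, 0.51 and 0.59 in Akita kidneys, against 0.42, 0.46, 0.39 and 0.40 in control kidneys, a difference of 0.14. MiR-106b-5p minus miR-25-3p was higher in Akita by 0.08 and miR-106b-5p minus miR-93-5p lower by 0.06, again with no overlap of the groups. For miR-106b-5p minus miR-25-3p the groups nearly touched, with 0.85 to 0.93 in Akita kidneys and 0.75 to 0.85 in control kidneys. In all 6 pairs of the 4 detected members, then, the groups did not overlap, where this was so for 26.1% of all 32896 pairs of miRNAs above background on all 8 arrays. The 6 pairs come from only 4 miRNAs and are not independent, and no p-value was computed for them. The order of the 4 log2 fold changes, miR-93-5p above miR-106b-5p above miR-25-3p above miR-20b-5p, was the same under the 14 of 24 alternatives that can alter a within-array difference: 6 in processing, and 8 that left out 1 array. The other 10, such as another factor per array, leave it as it is.

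**Figure D3:**
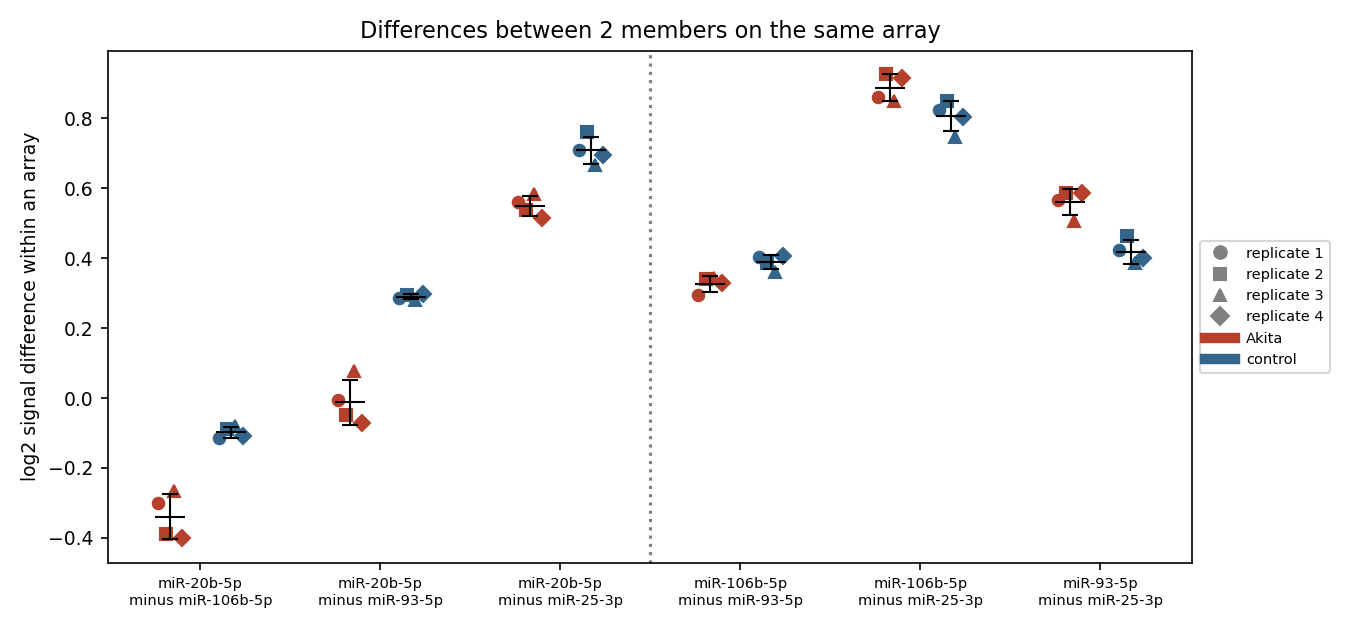
Log2 signal of 1 member minus that of another on the same array (vertical axis), for the 6 pairs of detected members, Akita left of control, with the mean and SD (n = 4 each). Left of the dotted line, miR-20b-5p is set against each miRNA of the Mcm7 intron and every Akita kidney lies below every control kidney; right of it, the miRNAs of the intron are set against each other, with shifts of 0.06 to 0.14.

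The seed relatives from the miR-17-92 cluster are set beside the members next. Of the miR-17 family, 5 of 6 members were tested and none was called under the main scaling. MiR-20a-5p had log2 signals of 9.11, 9.01, 9.18 and 9.21 in Akita kidneys, against 9.23, 9.35, 9.32 and 9.29 in control kidneys, with a log2 fold change of -0.17 (limma adjusted p = 0.12). It was called lower with quantile normalization (limma adjusted p = 0.0074), with cyclic loess (limma adjusted p = 0.010), on unscaled arrays and on spike-in scaling. MiR-17-5p had a log2 fold change of -0.25 (limma adjusted p = 0.055). It was called lower under 4 of the 24 alternatives, and its probes match miR-106a-5p as well. In both miR-20a-5p and miR-17-5p, all 4 Akita values lay below all 4 control values, as in 9.12% of all tested miRNAs. MiR-20b-5p minus miR-20a-5p differed by -0.05 between the groups, which overlapped, and the probes of these 2 miRNAs differ from each other's target by 1 base.

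Of the miR-92 family, 3 of 6 members were tested, and 1, miR-92a-3p, was called lower, where 6.32% of all tested miRNAs were. Its log2 signals were 8.20, 8.06, 8.24 and 8.14 in Akita kidneys, against 8.52, 8.51, 8.52 and 8.52 in control kidneys, with a log2 fold change of -0.36 ± 0.06 SE (limma adjusted p = 0.0067). With the 75th percentile taken over all probes the call was lost, at -0.27 (limma adjusted p = 0.34). MiR-25-3p minus miR-92a-3p ran from -0.32 to -0.06 in Akita kidneys and from -0.62 to -0.46 in control kidneys. This was a shift of 0.30 with no overlap of the groups, as in 26.1% of all pairs of miRNAs above background on all 8 arrays. MiR-32-5p, of the same family, had a log2 fold change of 0.11 (limma adjusted p = 0.52). MiR-92b-3p, miR-363-3p and miR-367-3p were above background on no array. The sums of miR-92b-3p still lay above the floor, at 48.8 to 55.3 in Akita kidneys and 31.3 to 48.8 in control kidneys. It was not tested.

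Of the miR-19 family, miR-19b-3p was called lower (log2 fold change -0.28 ± 0.07 SE, limma adjusted p = 0.034) and miR-19a-3p had -0.14 (limma adjusted p = 0.24). The call of miR-19b-3p was lost when any 1 array other than control replicate 1 was left out, and held under 12 of the 24 alternatives. Because miR-19b-3p and miR-92a-3p are made from both chromosome 14 and chromosome X, their values do not say which cluster changed. Of the miR-18 family, miR-18a-5p was above background on 1 control array only.

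**Figure D4:**
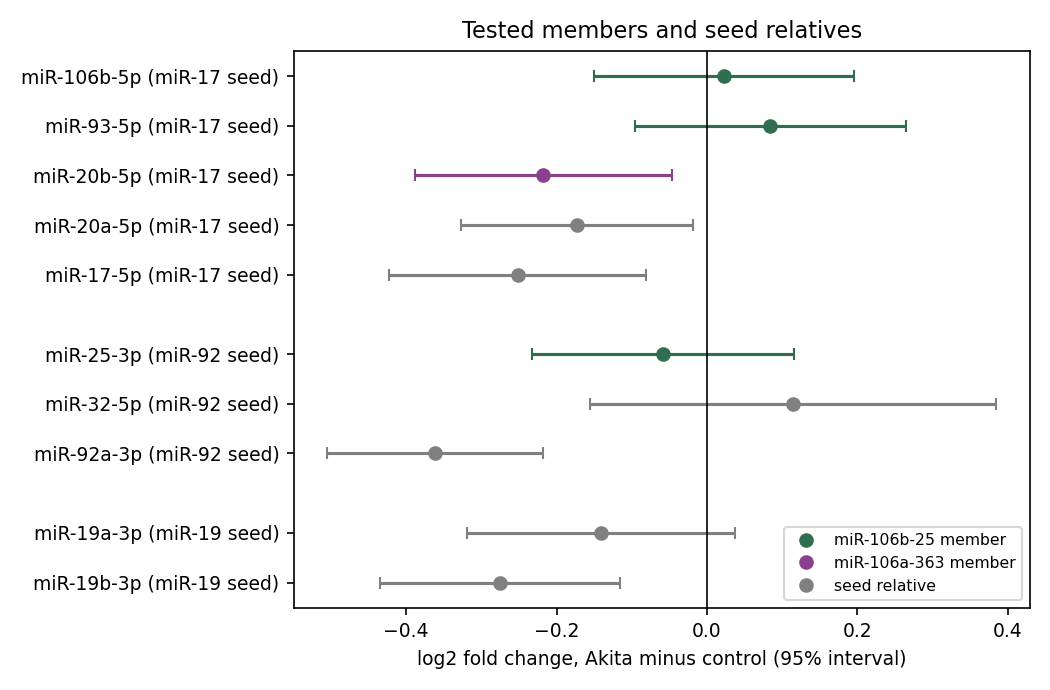
Log2 fold change, Akita minus control, with its 95% interval from limma (horizontal axis) for the 10 tested miRNAs that share a seed with the clusters. The 3 miRNAs of the Mcm7 intron (green) have intervals across 0, and miR-20b-5p (purple, -0.22) lies between miR-20a-5p (-0.17) and miR-17-5p (-0.25).

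Over the 8 arrays, likeness was measured as the root mean square difference between 2 miRNAs' log2 signals, each taken from its own mean. MiR-93-5p was the closest to miR-106b-5p of all 256 other miRNAs above background on all arrays (0.036), its neighbour in the intron, while miR-25-3p came 18th (0.054) and miR-20b-5p 121st (0.13). Seen from miR-93-5p, miR-25-3p came only 53rd (0.078) and miR-20b-5p 155th (0.16). Seen from miR-25-3p, miR-20b-5p came 51st (0.085). Outside the members, the closest to miR-20b-5p were miR-26b-5p (0.035), miR-20a-5p (0.037) and miR-872-5p (0.045), where miR-20b-5p itself varied by 0.13 around its mean. Again outside the members, the closest to miR-93-5p were miR-126a-5p (0.033), miR-196b-5p and miR-425-5p, and the closest to miR-106b-5p were miR-99b-5p (0.037), let-7g-5p and miR-30c-2-3p. MiR-25-3p, set against the same 253 miRNAs, was closest to let-7a-5p (0.029), let-7e-5p and let-7b-5p. The measure describes 8 arrays, and small values are easily reached by miRNAs that vary little.

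The arrays carried the miRNAs of kidney tubules: all 6 listed ones were above background on all 8 arrays and none was called. Of markers of other tissues, miR-375-3p of islets, miR-124-3p of neurons, and miR-133a-3p and miR-206-3p of striated muscle were above background on no array. The neuronal miR-9-5p was above background on all 8 arrays, the muscle miR-1a-3p on 3 of 4 Akita and 3 of 4 control arrays, and the liver miR-122-5p on 2 of 4 Akita and 3 of 4 control arrays. MiRNAs of leukocytes, in which the miR-17-92 cluster and its paralogs are also expressed, were lower in Akita. Of 6 listed miRNAs, 5 were called lower and none higher, where 6.32% of all tested miRNAs were called lower. Their summed scaled signal ran from 732 to 872 in Akita kidneys and from 1069 to 1232 in control kidneys, with none of the 6 at background. The part of leukocytes in the values of miR-20b-5p, miR-92a-3p and miR-19b-3p was not tested. Of 3 listed erythrocyte miRNAs, miR-486a-5p was above background on no array, and miR-144-3p on 2 of 4 Akita and 1 of 4 control arrays. The other, miR-451a, ran from 9.18 to 9.59 in Akita kidneys and from 6.44 to 10.23 in control kidneys on the log2 scale. Its spread among the control kidneys was not matched by any detected member. The 8 arrays shared 1 slide, with Akita in its row 2 and control in its row 1: the effects of row and group cannot be told apart.

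The direction of the Mcm7 intron miRNAs depended on the scaling. Without scaling, the 285 tested miRNAs had a median log2 fold change of -0.21. The values of miR-106b-5p and miR-25-3p were -0.25 and -0.33, both called lower, with miR-93-5p at -0.19, not called. Of the 285 tested miRNAs, 104 were called lower there. Scaled to 2 spike-in RNAs, all 4 tested members were called lower, where 108 of all 285 were and the median was -0.18. The 2 spike-ins did not move alike: the mean signal of dmr_285 ran from 3301 to 3653 in Akita and 2996 to 3425 in control, and that of dmr_31a from 863 to 969 in Akita and 968 to 1014 in control, and scaling to either alone was not tested. Taken relative to the median of the 285 tested miRNAs, miR-20b-5p was at -0.28, miR-25-3p at -0.12, miR-106b-5p at -0.04 and miR-93-5p at 0.02. This was so under both settings and under the main scaling.

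**Figure D5:**
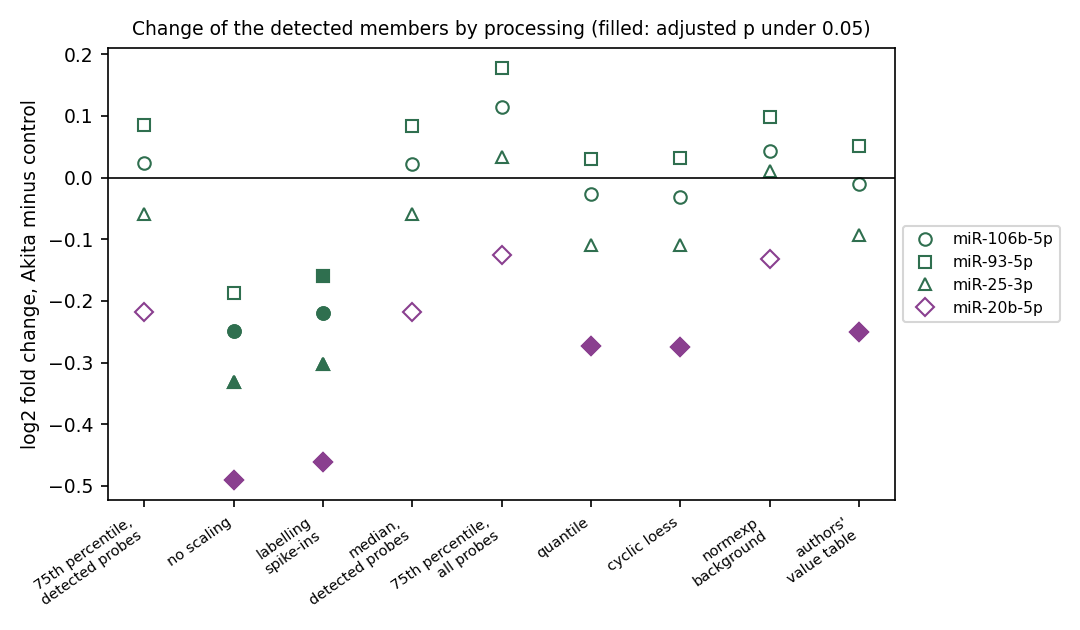
Log2 fold change, Akita minus control (vertical axis), of the 4 detected members under 9 ways of scaling, background correction or summary (horizontal axis); filled symbols have a limma adjusted p under 0.05. MiR-20b-5p is the lowest of the 4 under each, from -0.49 without scaling to -0.13 with the percentile over all probes. The 3 miRNAs of the Mcm7 intron lie below 0 without scaling and with the spike-ins, above 0 with the percentile over all probes and with normexp, and on both sides of 0 elsewhere.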

How the data were processed

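Each array has 1 deposited file of linear intensity values per spot. Per the file headers and the submitters' processing notes the software was Agilent Feature Extraction 12.0.3.1, and the headers record spatial detrending of the background as switched on. The authors' deposited value table holds a ratio per miRNA and array, and set against the scanner files over 257 miRNAs it equals the software's total signal over 1 factor for the array and 1 median for the miRNA (residual SD of 2.75e-06 in log2). The medians of its columns were 1.03 to 1.22 in Akita and 0.700 to 0.970 in control, and no source used here gives the steps behind its factors. It was used as an alternative.

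Control spots and spots flagged as outliers (2.03% to 3.02% per array) were left out, and 0 spots were saturated. Spots were averaged over 4415 probes, arrays were scaled to the 75th percentile of 451 detected probes, a miRNA's probes (at most 4) were summed, sums under 23.65 (4.56 in log2) were set to that floor, and log2 was taken. Arrays had 274 to 298 miRNAs above background in Akita and 295 to 327 in control. Groups came from the sample titles. The two-sided test was limma 3.58.1 (R 4.3.3) with 6 residual degrees of freedom, 9.16 after moderation. The fit was also run on simulated data without row or array effects, which cannot show what such effects do here. The number of arrays limits the precision. The text names the 9 members, the other arms of both clusters, their seed relatives and, per detected member, the 3 most alike miRNAs. The members and lists were chosen with earlier results of these data known. Mature sequences come from RefSeq (GRCm38.p6), and probe sequences from the scanner files, whose annotation uses mm9; no position was converted.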

Additional observations from a re-analysis of the deposited data

How the results depend on the processing

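The 24 alternatives changed the scaling, background, probe summary, floor, filter, spots, source of values or fit, or left out 1 array. None of the tested members was called under 19 of them. The number called was 3 without scaling, 4 with the spike-ins and 1 (miR-20b-5p) with quantile normalization, cyclic loess or the deposited table. Unscaled arrays gave a median of the tested miR-106b-25 members of -0.249, the spike-ins -0.22 and the percentile over all probes 0.115; leaving out 1 array gave -0.033 to 0.056. Under these same 3 settings miR-20b-5p, the single tested miR-106a-363 member, had -0.49, -0.461 and -0.125. It was below 0 under all 24, called under 5, and ran from -0.253 to -0.168 with 1 array left out.

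Signs turned for miR-106b-5p at -0.249 unscaled, -0.22 on spike-in scaling, -0.027 with quantile normalization, -0.0314 with cyclic loess, -0.0108 with the deposited table and -0.000999 with outlier spots kept, and it ran from -0.033 to 0.056 with 1 array left out. They turned for miR-93-5p at -0.188 on unscaled arrays and -0.159 with the spike-ins, for miR-25-3p at 0.0337 with the percentile over all probes and 0.011 with normexp, for miR-17-5p at 0.0977 and miR-19a-3p at 0.0143 with normexp, and for miR-32-5p at -0.158 without scaling, -0.129 with the spike-ins and -0.0257 with the deposited table. The causes were not tested. Over all tested miRNAs, 24 were called higher and 18 lower, against 5 and 104 on unscaled arrays, 7 and 108 scaled to spike-ins, 27 and 16 with the median of detected probes, 10 and 4 with the percentile over all probes, 81 and 8 with normexp, 4 and 5 with the higher floor, 4 and 2 without the filter, and from 20 to 40 in all with 1 array left out.

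Replicate numbers, which are also slide columns, did not pair the samples: same-numbered deviations correlated between -0.38 and 0.30 over 257 miRNAs, and 1 of 8 samples correlated best with its own number. With the replicate block, 25 miRNAs were called and 0 of the members, with miR-20b-5p at -0.218 (limma adjusted p = 0.27). The calls of miR-92a-3p at -0.361 (limma adjusted p = 0.070) and miR-19b-3p at -0.275 (limma adjusted p = 0.17) were lost with the block.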
